A study of Mus musculus with 15 samples.

Results

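Glycolysis, the use of pyruvate by mitochondria and the response to low oxygen were followed through 36 genes in newborn mouse liver. They comprised 22 genes of glucose uptake, glycolysis and lactate formation, 6 genes of the pyruvate dehydrogenase complex and its kinases, and 8 genes induced by hypoxia. The genes were taken by name among the 34797 names on the array, with Pkm listed under its older name Pkm2, and the brightest of a gene's probes stood for it. All 36 were measured: each of these probes was well above background on all 15 arrays, and they belonged to the 27554 genes tested.

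The livers came from pups on postnatal day 1, on a C57BL/6J background. There were 7 hypoglycaemic KO pups with a blood glucose of 9 to 33 mg/dl, 3 normoglycaemic KO pups with 44 to 56 mg/dl and 5 wild-type littermates with 50 to 72 mg/dl. In both KO groups the miR-379/miR-410 cluster was missing from the allele passed on by the mother, and the labels name no tissue-restricted driver. The KO pups were sorted by their blood glucose, so the comparison of the KO groups is one of pups chosen for high and low glucose. One Cy3-labelled array was made per pup, from total RNA of frozen liver. In bulk liver RNA, fewer cells of a type and less of a transcript per cell cannot be told apart.

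Glycolysis splits glucose into pyruvate and yields ATP without oxygen. The liver of a newborn, cut off from the placental glucose supply, turns from using glucose to making it and to burning fat from milk. Pyruvate either becomes lactate through lactate dehydrogenase or enters mitochondria, where the pyruvate dehydrogenase complex commits it to oxidation unless a pyruvate dehydrogenase kinase switches the complex off. When oxygen is short, the transcription factors HIF1 and HIF2 escape prolyl hydroxylation, bind the core letters ACGTG or GCGTG and raise glycolytic enzymes along with genes such as Bnip3, Ankrd37 and Adm. The liver pyruvate kinase gene, Pklr, is instead known as a target of the glucose-sensing factor ChREBP, which binds the carbohydrate response element.

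The promoters of 4 members on which the results below turn are shown because they hold these letters. RefSeq start sites (GRCm38.p6) were found for 35 of the 36 genes, at 54 promoters, and Ndrg1 had no entry in the table used. The 250 bases before each start site were searched on both strands for ACGTG or GCGTG. Matches on opposite strands can overlap, as in CACGTG and in CACGCGTG. These letters were in 39 of the 54 member promoters (72.2%), against 38.6% of all 32851 promoters in the table. Many members were listed as genes that low oxygen is known to raise, so a higher share was to be had from the choice of genes. The 2 shares are a description and not a test. A match to the carbohydrate response element was found at 1 member promoter, that of Pklr, and at 32 of all promoters (0.0974%). Capitals mark ACGTG or GCGTG on either strand in the promoters of Ankrd37 (chr8:45999851-46000100, minus strand), Bnip3 (chr7:138909507-138909756, minus strand) and Adm (chr7:110627407-110627656, plus strand), and the carbohydrate response element, starting 170 bases before the start site, in the second of the Pklr promoters (chr3:89136373-89136622, plus strand).
Ankrd37: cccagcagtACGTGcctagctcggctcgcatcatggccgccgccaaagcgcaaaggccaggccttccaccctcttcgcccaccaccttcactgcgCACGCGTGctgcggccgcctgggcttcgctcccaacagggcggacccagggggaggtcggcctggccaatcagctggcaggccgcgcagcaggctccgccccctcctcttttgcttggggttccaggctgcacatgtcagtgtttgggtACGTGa
Bnip3: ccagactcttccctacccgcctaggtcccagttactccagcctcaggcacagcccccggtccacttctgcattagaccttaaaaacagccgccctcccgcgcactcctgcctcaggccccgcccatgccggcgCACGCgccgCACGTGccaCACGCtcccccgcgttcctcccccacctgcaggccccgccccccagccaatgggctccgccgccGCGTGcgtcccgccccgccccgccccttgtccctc
Adm: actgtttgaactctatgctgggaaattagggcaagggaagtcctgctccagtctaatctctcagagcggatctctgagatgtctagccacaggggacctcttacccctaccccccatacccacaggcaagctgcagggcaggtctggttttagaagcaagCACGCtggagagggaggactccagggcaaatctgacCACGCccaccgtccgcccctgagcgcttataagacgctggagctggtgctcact
Pklr: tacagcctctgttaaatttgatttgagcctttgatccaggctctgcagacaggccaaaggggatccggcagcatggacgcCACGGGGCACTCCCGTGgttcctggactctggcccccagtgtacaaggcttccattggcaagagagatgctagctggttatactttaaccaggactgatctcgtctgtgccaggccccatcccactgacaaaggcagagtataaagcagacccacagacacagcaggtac
A match is a description of the letters and was not set against any binding data.

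Levels are given as log2 of the background-subtracted signal minus the log2 of that array's 75th percentile, which lay at a signal of 570 to 783. A level compares a gene between livers but not with another gene, since probes differ in brightness. Mirg, the host transcript of the deleted cluster, lay at −2.78 to −0.99 in 6 hypoglycaemic KO libraries, −2.56 to −2.45 in the normoglycaemic KO and 1.12 to 1.84 in the wild-type libraries, but at 0.89 in the library labelled hypoglycaemic KO replicate 2, whose label it does not match. The Y-linked gene Ddx3y lay at 2.09 to 2.55 in normoglycaemic KO replicates 1 and 3, hypoglycaemic KO replicates 1 and 2 and wild-type replicate 3. In the other libraries it lay at −7.68 to −4.92. The groups thus differed in their mix of sexes, which was not a term of the model, and its part in the differences was not tested. All 10 hepatocyte markers were well above background in every library, with a summed level of 12.0 to 12.3. The summed level of the 11 exocrine pancreas genes with a probe, of 12 listed, stood out in normoglycaemic KO replicate 2 (9.43), hypoglycaemic KO replicate 3 (6.46) and wild-type replicate 2 (6.42). The genes and lists were compared in 3 pairs of groups with limma, and a gene was called where its p, adjusted by Benjamini and Hochberg across the 27554 genes, was under 0.05.

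No member was called in any of the 3 comparisons. Of the 27554 genes, 5 (0.0181%) were called between hypoglycaemic KO and wild-type livers, 0 (0%) between normoglycaemic KO and wild-type livers and 15 (0.0544%) between hypoglycaemic and normoglycaemic KO livers, 6 of them higher (0.0218%) and 9 lower (0.0327%). At an unadjusted p under 0.05, hypoglycaemic KO livers had 5 members above and 3 below their wild-type littermates, which is 13.9% and 8.33% of the 36, beside 9.93% and 8.94% of all genes (18.9% in either direction). No member separated all hypoglycaemic KO from all wild-type livers, beside 0.755% of all genes higher and 0.722% lower. Between normoglycaemic KO and wild-type livers 1 member was higher and 1 lower, or 2.78% each, beside 3.16% and 1.67% of all genes (4.82% in either direction). Between hypoglycaemic and normoglycaemic KO livers 7 were higher and 6 lower, or 19.4% and 16.7%, beside 9.36% and 10.1% of all genes (19.4% in either direction). The comparisons share groups and are not independent of each other. Without hypoglycaemic KO replicate 4, the pup with the highest glucose of its group, Adm was called higher against wild type and against normoglycaemic KO, and Aldoc was called lower against normoglycaemic KO. The share of all genes called in that setting is not given here, so these calls cannot be read as particular to the members.

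The median difference of each list from wild type was small in both KO groups. In hypoglycaemic KO livers it was 0.08 for glycolysis, 0.13 for pyruvate dehydrogenase and 0.21 for the hypoxia-induced genes, beside 0.02 for all genes. Wild-type replicate 2 and hypoglycaemic KO replicate 5 carried much of these values: without the first, the glycolysis and pyruvate dehydrogenase medians were 0.03 and 0.01, and without the second, the hypoxia-induced median was 0.08. In normoglycaemic KO livers the medians were −0.03, 0.02 and 0.04, beside 0.01 for all genes. Between hypoglycaemic and normoglycaemic KO livers they were 0.10, 0.17 and 0.10, beside −0.01 for all genes. The last hypoxia-induced value was −0.08 without hypoglycaemic KO replicate 5, −0.12 within slide 1 and 0.40 within slide 2, so its sign depended on the livers included. Slide 1 held 4 hypoglycaemic KO, 2 normoglycaemic KO and 2 wild-type libraries, and slide 2 held 3, 1 and 3. Every value of normoglycaemic KO within slide 2, here and below, thus rests on 1 liver.

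**Figure D1:**
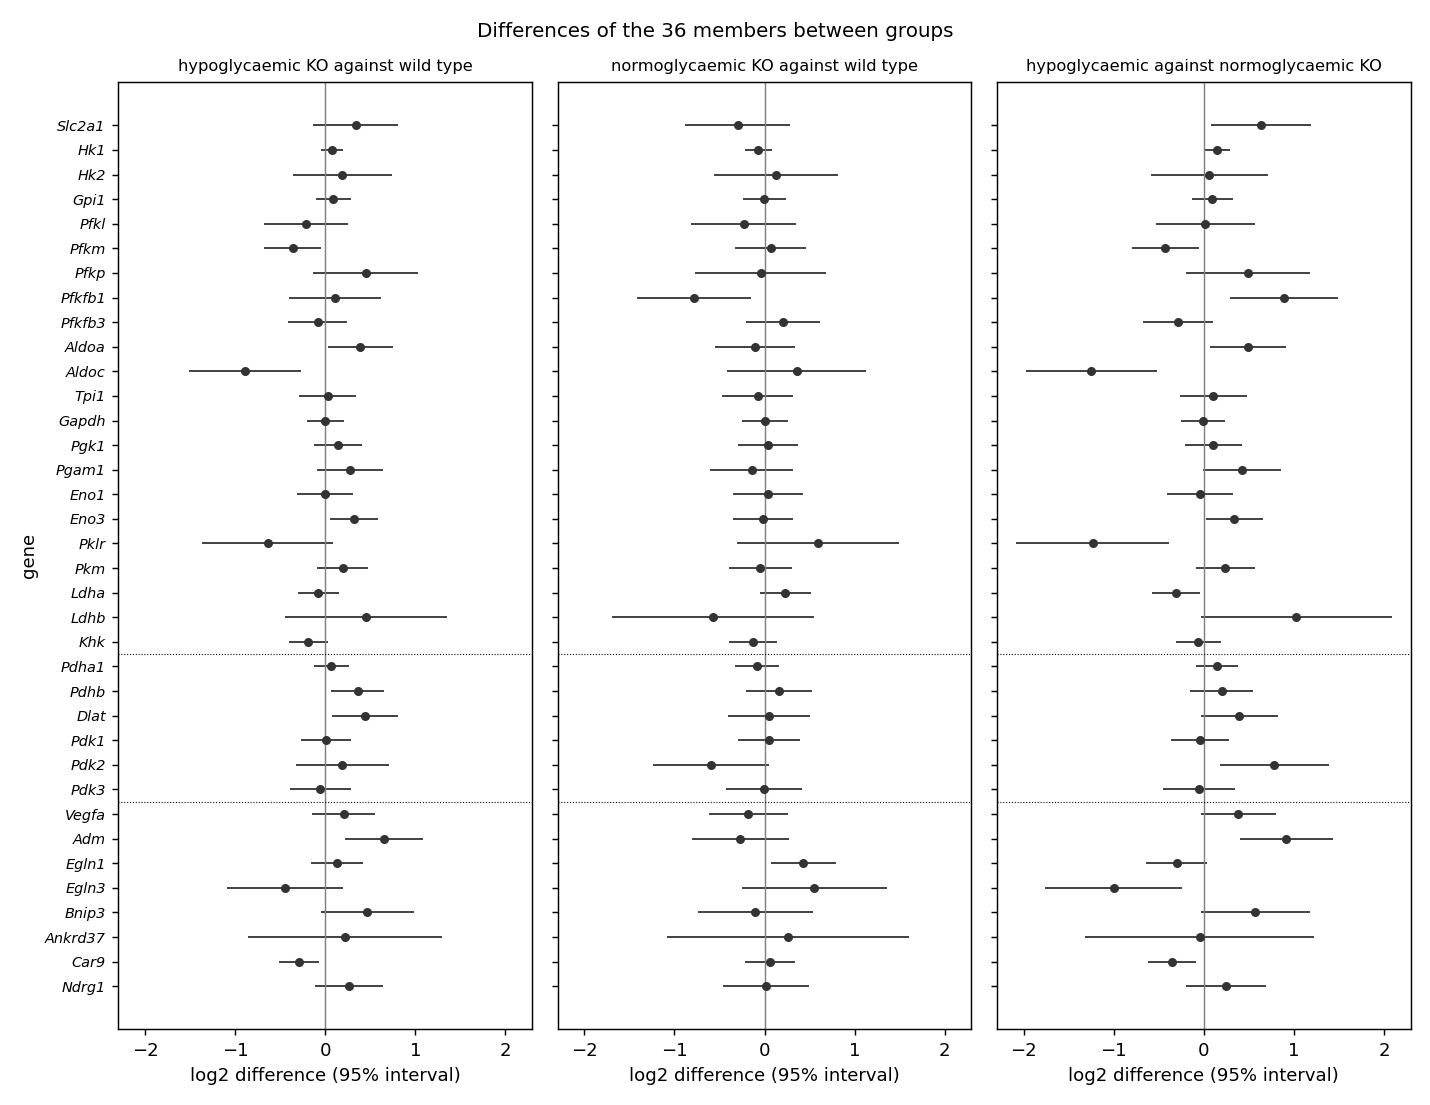
Log2 difference of each gene between groups (points) with its 95% interval from limma (bars) for the 3 pairs of groups. The longest departures are Aldoc at −1.25 and Pklr at −1.24 between the KO groups, and most intervals cross 0.

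Glucose enters through Slc2a1 (GLUT1), the transporter of fetal liver and erythroid cells, and is trapped by hexokinases. Slc2a1 lay between 3.22 and 4.36 in the hypoglycaemic KO libraries with a median of 3.54, at 3.27, 2.87 and 2.90 in normoglycaemic KO replicates 1 to 3, and at 3.76, 2.67, 3.26, 3.71 and 3.17 in wild-type replicates 1 to 5. The hypoglycaemic KO range overlapped both others, and its upper end was replicate 5. The difference was 0.34 (SE 0.22, limma adjusted p = 0.425) against wild type and 0.64 (SE 0.26, adjusted p = 0.196) against normoglycaemic KO, and −0.30 (SE 0.27, adjusted p = 0.97) for normoglycaemic KO against wild type. The last value was −0.19 without wild-type replicate 1 and −0.46 without wild-type replicate 2. Hk1, the hexokinase of most cells, lay at 8.06 to 8.26 in hypoglycaemic KO libraries, above all normoglycaemic KO libraries (7.96 to 8.02), with a difference of 0.14 (SE 0.07, limma adjusted p = 0.252). The wild-type libraries (7.95 to 8.12) overlapped both. The 3 Hk1 probes did not point the same way, with hypoglycaemic KO against wild-type differences of 0.08, −0.30 and −0.18.

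The next steps are set by phosphofructokinase and by the enzymes that make its activator fructose 2,6-bisphosphate. Pfkfb1, the liver form of those activator enzymes, whose probe lies at chromosome X, 147078320 to 147078379 (mm9), was at 3.38 to 4.71 in hypoglycaemic KO libraries with a median of 3.93. It was at 3.16, 2.73 and 3.51 in the normoglycaemic KO and at 4.38, 3.78, 3.71, 4.07 and 3.65 in the wild-type libraries. All 3 normoglycaemic KO livers lay below all 5 wild-type livers, with a mean of 3.14 ± 0.39 (SD, n = 3) against 3.92 ± 0.30 (SD, n = 5). This was the smallest unadjusted p among the members in that comparison, a difference of −0.78 (SE 0.30) or 1.72-fold lower, and it did not pass over all genes (limma adjusted p = 0.963). Non-overlap of this kind was found for 3 members higher and 1 lower in normoglycaemic KO, beside 2.46% and 1.51% of all genes. Hypoglycaemic KO livers were 1.85-fold above normoglycaemic KO livers (limma difference 0.89, SE 0.28, adjusted p = 0.126), with overlapping ranges. Within slide 2, with 1 normoglycaemic KO liver, the Pfkfb1 difference was −0.30 for normoglycaemic KO against wild type and 0.38 between the KO groups.

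Of the phosphofructokinase subunits, Pfkm, the muscle-type subunit, was at 1.04 to 1.75 in hypoglycaemic KO libraries with a median of 1.18, at 1.82, 1.75 and 1.68 in the normoglycaemic KO and at 1.23, 1.97, 1.76, 1.82 and 1.63 in the wild-type libraries. The hypoglycaemic KO livers with the lowest glucose were the low ones. The difference was −0.36 (SE 0.15, limma adjusted p = 0.206) against wild type and −0.43 (SE 0.17, adjusted p = 0.199) against normoglycaemic KO. Pfkl, the liver-type subunit, differed by −0.21 from wild type (95% interval −0.68 to 0.26) and Pfkp, the platelet-type subunit, by 0.45 (−0.13 to 1.03). Pfkfb3, the inducible activator enzyme, differed by −0.08 (−0.41 to 0.25), while its second, dimmer probe gave 0.45.

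Aldolase C and aldolase A cleave the same sugar phosphate, and aldolase C is best known from brain. Aldoc, whose probe lies at chromosome 11, 78140198 to 78140257 (mm9), was at 2.07 to 3.51 in hypoglycaemic KO libraries with a median of 3.09. It was at 4.07, 4.36 and 3.84 in the normoglycaemic KO and at 3.16, 4.47, 3.74, 3.68 and 3.57 in the wild-type libraries. Every hypoglycaemic KO liver lay below every normoglycaemic KO liver, and the hypoglycaemic KO and wild-type ranges met between 3.16 and 3.51. Aldoc was 2.38-fold lower in hypoglycaemic than in normoglycaemic KO livers (limma difference −1.25, SE 0.34, adjusted p = 0.0997) and 1.85-fold lower than in wild-type livers (−0.89, SE 0.29, adjusted p = 0.135). Non-overlap was found for 2 members in each direction between the KO groups, beside 4.88% of all genes higher and 3.99% lower.
Aldoa, the form of most tissues, had differences of the opposite sign. It was at 7.03 to 7.84 in hypoglycaemic KO libraries with a median of 7.50, at 7.31, 6.74 and 7.00 in the normoglycaemic KO and at 7.18, 6.55, 7.31, 7.47 and 7.11 in the wild-type libraries. Its groups overlapped, and the difference was 0.39 (SE 0.17, limma adjusted p = 0.226) against wild type and 0.49 (SE 0.20, adjusted p = 0.191) against normoglycaemic KO. The difference from wild type was 0.25 without wild-type replicate 2 and 0.23 without the 3 libraries rich in pancreas transcripts.

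The lower steps run from triose phosphate to phosphoenolpyruvate. For Tpi1, Gapdh, Pgk1, Pgam1 and Eno1, the difference of hypoglycaemic KO from wild type ranged from 0.00 for Eno1 to 0.28 for Pgam1 (SE 0.17), and that of normoglycaemic KO from −0.14 for Pgam1 to 0.04 for Eno1. Pgam1 differed by 0.42 (SE 0.20, limma adjusted p = 0.268) between hypoglycaemic and normoglycaemic KO. Wild-type replicate 2 was the lowest of all 15 libraries for each of these 5 genes. The Gapdh and Pgk1 probes that stood for their genes carry coordinates on chromosomes 7 and 3 (mm9), not on the chromosomes of these genes, 6 and X, so the signals of both probes are uncertain. Eno3, the muscle enolase that liver also expresses, was at 1.68 to 2.43 in hypoglycaemic KO libraries with a median of 2.03, at 1.76, 1.75 and 1.66 in the normoglycaemic KO and at 1.92, 1.47, 1.81, 1.79 and 1.70 in the wild-type libraries. Hypoglycaemic KO replicates 1, 2, 3, 5 and 6 lay above both other groups, while the ranges overlapped. Its difference was 0.32 (SE 0.12, limma adjusted p = 0.188) against wild type and 0.34 (SE 0.15, adjusted p = 0.228) against normoglycaemic KO.

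Pyruvate kinase makes pyruvate, with Pklr as the hepatocyte and red cell gene and Pkm as the gene of most other cells. Pklr, whose probe spans chromosome 3, 88948907 to 88949425 (mm9), was at −3.10 to −1.49 in hypoglycaemic KO libraries with a median of −2.58. It was at −1.41, −0.40 and −1.59 in the normoglycaemic KO and at −2.17, −0.59, −2.01, −1.99 and −1.87 in the wild-type libraries. Normoglycaemic KO replicate 2 and wild-type replicate 2 stood above the rest of their groups, and the same libraries were rich in exocrine pancreas transcripts. Hypoglycaemic KO replicate 3, the other library rich in them, had the lowest Pklr level of all 15, at −3.10. The part of those transcripts in the Pklr level was not tested. Pklr was 2.35-fold lower in hypoglycaemic than in normoglycaemic KO livers (limma difference −1.24, SE 0.40, adjusted p = 0.131) and 1.56-fold lower than in wild-type livers (−0.64, SE 0.34, adjusted p = 0.323). For Pklr, the KO groups differed by −0.75 without the 3 libraries rich in pancreas transcripts, −0.87 without normoglycaemic KO replicate 2 and −0.65 within slide 2. Normoglycaemic KO livers differed from wild-type livers by 0.59 (SE 0.42, limma adjusted p = 0.963), by 0.23 without normoglycaemic KO replicate 2 and by 0.88 without wild-type replicate 2. Pkm differed by 0.19 between hypoglycaemic KO and wild type (95% interval −0.09 to 0.47).

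Lactate dehydrogenase A turns pyruvate into lactate, and the B subunit favours the reverse. Ldha was at 8.51 to 9.07 in hypoglycaemic KO libraries with a median of 8.91, at 9.19, 9.06 and 9.05 in the normoglycaemic KO and at 8.76, 8.95, 8.85, 8.84 and 8.97 in the wild-type libraries. All normoglycaemic KO livers lay above all wild-type livers, with a difference of 0.23 (SE 0.13, limma adjusted p = 0.963), and hypoglycaemic KO livers differed by −0.31 (SE 0.12, adjusted p = 0.2) from normoglycaemic KO livers. Ldhb was at 1.93 to 4.21 in hypoglycaemic KO libraries with a median of 3.11, at 2.23, 1.74 and 1.77 in the normoglycaemic KO and at 2.81, 1.25, 3.43, 3.08 and 1.86 in the wild-type libraries. It varied more within groups than most members, with an SD of 0.78 in hypoglycaemic KO and 0.90 in wild type, and its differences of 0.45 (SE 0.42, limma adjusted p = 0.592) and −0.57 (SE 0.52, adjusted p = 0.97) for the KO groups against wild type were about as large as their errors. The second was −0.046 within slide 1 and −1.02 within slide 2, and −0.88 without wild-type replicate 2 and −0.34 without wild-type replicate 3. Khk, which phosphorylates fructose in liver, differed from wild type by −0.19 (95% interval −0.40 to 0.03) in hypoglycaemic KO and by −0.12 (−0.39 to 0.14) in normoglycaemic KO livers. A second, dimmer Khk probe gave 0.18 and 0.27.

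The size of 2 of these differences varied between the probes of a gene. For Gapdh, 6 probes carry coordinates on chromosome 6. The one nearest the 3′ end, whose coordinates cover only part of a probe, was left out of the series along the gene, and its normoglycaemic KO minus wild-type difference was 0.20. Among the other 5, that difference was 0.05 at the 3′-most probe and 0.39 at the probe 1443 bases upstream of it on the genome, so the left-out probe is not in the order of the 5. The hypoglycaemic KO minus wild-type difference was −0.01 and 0.17 at the same probes. For Ldha, the normoglycaemic KO minus wild-type differences were 0.23, 0.54 and 0.64 at the 3′-most probe and at 3643 and 7927 bases upstream of it. The 5′-most minus 3′-most level of Gapdh was −4.16 to −3.73 in hypoglycaemic KO libraries, −4.11 to −3.60 in normoglycaemic KO and −4.33 to −4.03 in wild-type libraries, and that of Ldha was −5.56 to −4.78, −4.99 to −4.59 and −5.39 to −4.98. Normoglycaemic KO replicates 1 and 2 and hypoglycaemic KO replicate 5 were the 3 libraries with the highest of these values for both genes. Labelling of this kind starts at the 3′ end of the RNA. The part of this value in the Ldha difference was not tested.

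**Figure D2:**
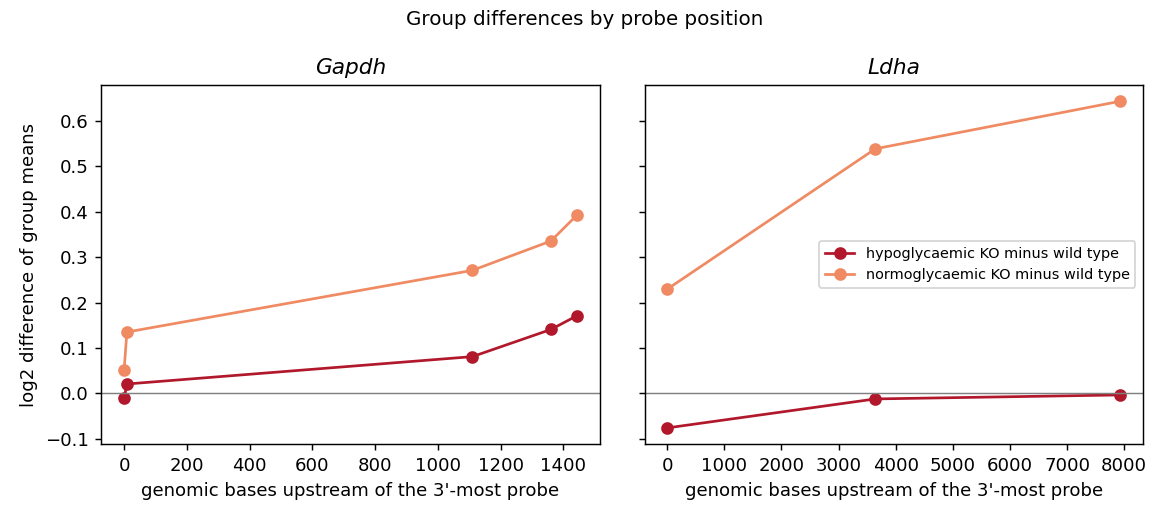
Difference of group means (log2, vertical) at each Gapdh and Ldha probe against its distance in genomic bases upstream of the 3′-most probe plotted (horizontal), without the Gapdh probe of partial coordinates. The normoglycaemic KO minus wild-type line climbs to 0.39 for Gapdh and 0.64 for Ldha at the far end, while the hypoglycaemic KO minus wild-type line stays at or below 0.17.

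The pyruvate dehydrogenase complex consists of the E1 subunits Pdha1 and Pdhb, the acetyltransferase Dlat and further subunits, and is switched off by the kinases Pdk1 to Pdk4. Pdhb was at 5.03 to 5.52 in hypoglycaemic KO libraries with a median of 5.27, at 5.11, 5.12 and 4.94 in the normoglycaemic KO and at 5.33, 4.96, 4.47, 4.62 and 5.10 in the wild-type libraries. Wild-type replicates 3 and 4 were the low ones. The difference of hypoglycaemic KO from wild type was 0.36 (SE 0.14, limma adjusted p = 0.184), and 0.17 within slide 1. Dimmer Pdhb probes gave 0.17 and 0.54 over all livers. Dlat was at 0.37 to 1.32 in hypoglycaemic KO libraries with a median of 0.72, at 0.64, 0.26 and 0.32 in the normoglycaemic KO and at 0.73, 0.05, 0.09, 0.52 and 0.41 in the wild-type libraries. Its groups overlapped, with a difference of 0.44 (SE 0.17, limma adjusted p = 0.185) from wild type, or 0.28 without the 3 libraries rich in pancreas transcripts. Pdha1 differed by 0.07 (95% interval −0.13 to 0.26).

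Among the kinases, Pdk2, a widely expressed form whose probe lies at chromosome 11, 94887669 to 94887728 (mm9), was at 1.49 to 2.45 in hypoglycaemic KO libraries with a median of 2.04. It was at 1.29, 0.75 and 1.30 in the normoglycaemic KO and at 2.18, 0.90, 2.00, 2.12 and 1.33 in the wild-type libraries. All hypoglycaemic KO livers lay above all normoglycaemic KO livers, while the wild-type livers spread over both. Hypoglycaemic KO was 1.72-fold above normoglycaemic KO (limma difference 0.78, SE 0.28, adjusted p = 0.16) and within error of wild type (0.19, SE 0.24, adjusted p = 0.704), and normoglycaemic KO differed from wild type by −0.59 (SE 0.30, adjusted p = 0.963). Pdk1, the HIF1-induced kinase, differed by 0.01 (95% interval −0.26 to 0.28) and Pdk3 by −0.06 (−0.39 to 0.28) between hypoglycaemic KO and wild type.

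Adm encodes adrenomedullin, a vasodilator peptide. Its level, from a probe at chromosome 7, 117773088 to 117773147 (mm9), was −0.48 to 0.86 in hypoglycaemic KO libraries with a median of 0.37. It was −0.62, −0.84 and −0.40 in the normoglycaemic KO and 0.13, −0.63, −0.41, −0.52 and −0.33 in the wild-type libraries. Hypoglycaemic KO replicate 4 lay among the other groups, and wild-type replicate 1 among the hypoglycaemic KO livers. Adm had the smallest unadjusted p of all members in both comparisons with hypoglycaemic KO livers. It was 1.57-fold higher than in wild type (limma difference 0.65, SE 0.20, adjusted p = 0.126) and 1.89-fold higher than in normoglycaemic KO (0.92, SE 0.24, adjusted p = 0.0964). Without hypoglycaemic KO replicate 4 these differences were 0.78 (adjusted p = 0.0406) and 1.05 (adjusted p = 0.0206), which passed in limma. The share of all genes that passed without this liver is not given here. Within slide 1 the Adm difference from wild type was 0.40. Over the leave-one-out settings the adjusted p reached 0.287 and 0.415.

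Of the 8 genes induced by hypoxia, 6 (75%) had a mean above wild type in hypoglycaemic KO livers, beside 52.9% of all genes. A mean above normoglycaemic KO was found for 4 (50%), beside 48.6% of all genes. Car9, a carbonic anhydrase, was at −1.80 to −1.37 in hypoglycaemic KO libraries with a median of −1.61, at −1.40, −1.02 and −1.29 in the normoglycaemic KO and at −1.46, −1.10, −1.15, −1.43 and −1.36 in the wild-type libraries. Its range overlapped the other groups, with differences of −0.29 (SE 0.10, limma adjusted p = 0.163) from wild type and −0.35 (SE 0.12, adjusted p = 0.151) from normoglycaemic KO. Egln3, a prolyl hydroxylase that marks HIF for destruction, was at −0.68 to 1.08 in hypoglycaemic KO libraries with a median of 0.12, at 1.64, 1.25 and 1.13 in the normoglycaemic KO and at 0.69, 0.19, 0.96, 0.97 and 1.12 in the wild-type libraries. Every normoglycaemic KO liver was above every liver of the other groups. The difference was −1.001 (SE 0.35, limma adjusted p = 0.154) for hypoglycaemic against normoglycaemic KO, and 0.55 (SE 0.37, adjusted p = 0.963) for normoglycaemic KO against wild type. For Egln3, normoglycaemic KO minus wild type was 1.002 within slide 1 and 0.11 within slide 2, and the difference of the KO groups was −0.47 within slide 2.
Egln1, the main prolyl hydroxylase, was at −3.20 to −2.34 in hypoglycaemic KO libraries with a median of −2.89, at −2.58, −2.31 and −2.77 in the normoglycaemic KO and at −3.13, −2.83, −2.91, −3.04 and −3.03 in the wild-type libraries. All normoglycaemic KO livers lay above all wild-type livers (limma difference 0.43, SE 0.17, adjusted p = 0.963), and the Egln1 difference was 0.20 with normexp background correction and 0.22 within slide 2. Vegfa, the angiogenic growth factor, differed from wild type by 0.21 (95% interval −0.14 to 0.56) in hypoglycaemic KO and by −0.18 (−0.61 to 0.26) in normoglycaemic KO livers. A dimmer Vegfa probe gave 0.03 and −0.11. Bnip3, a mitophagy receptor, differed by 0.47 (−0.05 to 0.98) and −0.10 (−0.74 to 0.54), and the stress gene Ndrg1 by 0.26 (−0.12 to 0.64) and 0.02 (−0.46 to 0.49).

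One liver carried high levels of many of the hypoxia-induced genes and of some glycolytic genes. Ankrd37, a HIF1 target with ankyrin repeats whose probe lies at chromosome 8, 47082404 to 47082463 (mm9), was at 1.61 in hypoglycaemic KO replicate 5 and at −1.82 to −1.01 in the other 6 hypoglycaemic KO livers. It was at −0.11, −1.51 and −1.01 in the normoglycaemic KO and at −1.88, −1.24, −0.94, −0.42 and −1.22 in the wild-type libraries. Replicate 5 was thus 7.72-fold above the median of the other 6 of its group and above all 15 libraries. Over the whole group, Ankrd37 averaged −0.92 ± 1.15 (SD, n = 7) in hypoglycaemic KO and −1.14 ± 0.53 (SD, n = 5) in wild type (limma adjusted p = 0.849).
Hk2, the hypoxia- and insulin-induced hexokinase, was at 0.79 in replicate 5, against −1.12 to −0.32 in the other 6, or 2.95-fold above their median. Bnip3 was at 7.25 against 5.59 to 6.30, a 2.01-fold excess over the median, and Pfkp at 0.53 against −0.74 to −0.03, a 1.82-fold excess. Slc2a1 (1.80-fold), Pfkfb3 (1.60-fold), Pdk1 (1.52-fold), Egln1 (1.49-fold), Vegfa (1.48-fold) and Adm (1.44-fold) were also above the other 6 in this liver.

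**Figure D3:**
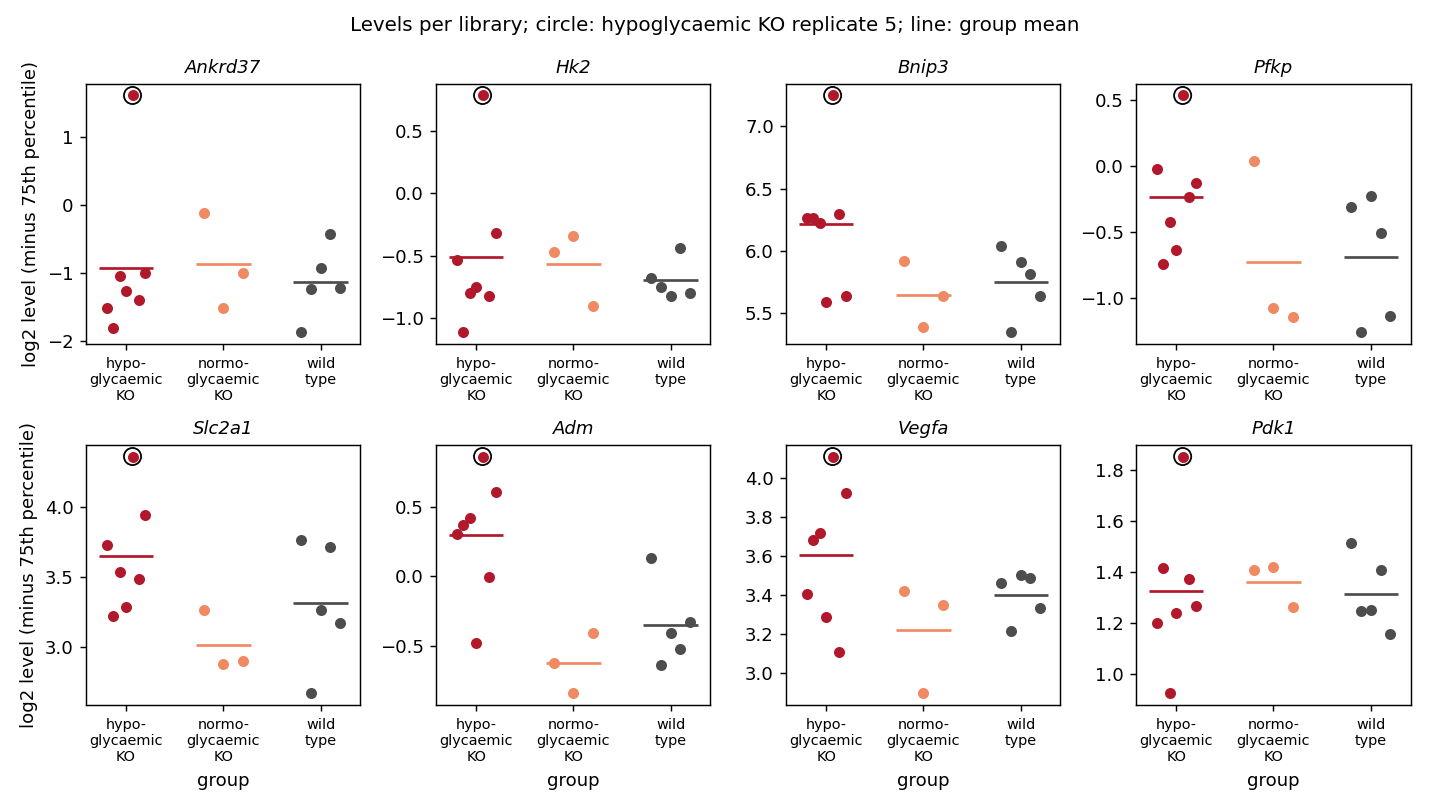
Log2 level of 8 genes in each liver (points) by group, with the group mean as a line and hypoglycaemic KO replicate 5 circled. The circled liver is the highest of all 15 in each of the 8 panels, at 1.61 for Ankrd37 and 7.25 for Bnip3. This follows from the choice of genes, since all 8 are among the 14 members whose highest level lay in this liver.

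In counts, replicate 5 was the highest of the 15 libraries for 14 of the 36 members (38.9%), beside 10.5% of all genes, and for 5 of the 8 hypoxia-induced genes. It exceeded the other 6 of its group for 16 members (44.4%), beside 14.6% of all genes. Among 30 further measured hypoxia genes it exceeded them for 14 (46.7%), with the repressor Bhlhe40 4.09-fold and the histone demethylase Kdm3a 2.02-fold above the median of the other 6. The summed level of the 6 endothelial markers was 6.16 in this liver, the highest of its group, against 5.43 to 6.04 in wild type, and that of the 6 stellate and fibroblast markers was 7.30. Other livers of its group came close, with an endothelial sum of 6.14 in replicate 1 and a stellate and fibroblast sum of 7.26 in replicate 2. The hepatocyte sum of replicate 5, at 12.2, was inside the wild-type range. The part of the endothelial and stellate transcripts, and of the probe position values given above, in the levels of this liver was not tested. Its blood glucose was 14 mg/dl, inside the range of its group. Hypoglycaemic KO replicates 5 and 7 each had 18 of the 36 members above the wild-type range, beside 23.6% and 23.7% of all genes. Each also had 6 of the 36 members below it, beside 26.4% and 22.3% of all genes. Of the 22 glycolytic genes each had 10 above the range, while replicate 5 had 5 and replicate 7 had 4 below it. Of the 8 hypoxia-induced genes replicate 5 had 6 and replicate 7 had 3 above the range, with 1 and 2 below it. Of the 6 pyruvate dehydrogenase genes 2 and 5 were above and 0 below.

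Wild-type replicate 2, the pup with the highest glucose of all (72 mg/dl), formed the other extreme. It was the lowest of the 15 libraries for 15 of the 36 members (41.7%), beside 16.1% of all genes, and for 12 of the 22 glycolytic genes. Aldoa at 6.55, Pgam1 at 5.48, Slc2a1 at 2.67 and Ldhb at 1.25 were among these lows. At the same time its Aldoc level of 4.47 was the highest of all. This library was also one of the 3 rich in exocrine pancreas transcripts, whose part in these lows was not tested.

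Blood glucose varied within the groups too, and a common slope of each level on glucose within groups was fitted. No slope passed at an adjusted p under 0.05, for members or for any gene (0%). At an unadjusted p under 0.05, 5 members had a negative and 3 a positive slope, beside 9.68% and 8.41% of all genes. The smallest p of the members was that of Pklr, with a slope of 0.57 log2 units per 10 mg/dl (SE 0.10, limma adjusted p = 0.0565). In each group its highest level belonged to the pup with the highest glucose: −1.49 at 33 mg/dl in hypoglycaemic KO, −0.40 at 56 mg/dl in normoglycaemic KO and −0.59 at 72 mg/dl in wild type. The slope was 0.67 within slide 1 and 0.24 within slide 2. It was 0.37 (limma adjusted p = 0.245) without the 3 libraries rich in pancreas transcripts, and over all settings the adjusted p ran between 0.0131 and 0.861.
Eno3 had a slope of −0.19 (SE 0.04, limma adjusted p = 0.0674). In hypoglycaemic KO livers it was at 2.43, 2.29 and 2.21 in the pups with 14, 12 and 9 mg/dl, and at 1.68 in the pup with 33 mg/dl. Pfkm had a slope of 0.21 (SE 0.06, limma adjusted p = 0.102), with 1.04, 1.18 and 1.08 in those pups of low glucose and 1.75 at 33 mg/dl. Within slide 2 the Pfkm slope was 0.12, and within slide 1 it was 0.27.

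**Figure D4:**
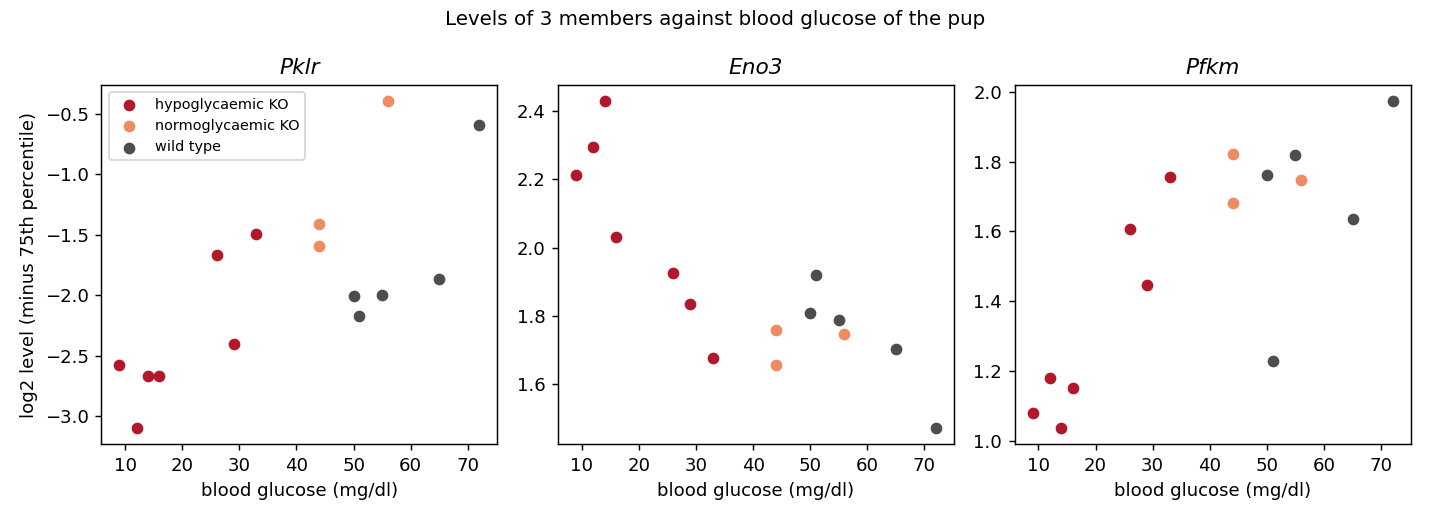
Log2 level of Pklr, Eno3 and Pfkm (vertical) against the blood glucose of the pup in mg/dl (horizontal), 1 point per liver, coloured by group. Within the hypoglycaemic KO livers Pklr and Pfkm points lie higher, and Eno3 points lower, towards 33 mg/dl.

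The other genes of these pathways were taken from 3 lists. None of 21 further genes of glucose and fructose entry, 17 of pyruvate and lactate and 30 of the hypoxia response was called in any comparison. At an unadjusted p under 0.05, hypoglycaemic KO livers differed from wild type by 2 higher and 5 lower of the first list, 3 and 1 of the second and 6 and 1 of the third, beside 9.93% higher and 8.94% lower of all genes. Their median differences were −0.05, 0.03 and 0.09. In normoglycaemic KO against wild type these counts were 0 and 1, 0 and 0, and 1 and 0, beside 3.16% and 1.67% of all genes, with medians of 0.06, −0.01 and −0.04. Between hypoglycaemic and normoglycaemic KO livers they were 2 and 5, 3 and 3, and 5 and 3, beside 9.36% and 10.1% of all genes.

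Of the glucose and fructose genes, Slc2a2, the hepatocyte glucose transporter, differed from wild type by −0.08 (SE 0.12, limma adjusted p = 0.777) in hypoglycaemic KO. Gckr, a regulatory protein of hepatic glucose use, averaged 3.72 ± 0.53 (SD, n = 7) in hypoglycaemic KO and 4.76 ± 0.32 (SD, n = 5) in wild type, 2.05-fold lower (limma adjusted p = 0.0875). Ldhd, the D-lactate dehydrogenase, differed from wild type by −0.67 (SE 0.19, limma adjusted p = 0.115) in hypoglycaemic KO and by −0.84 (SE 0.24, adjusted p = 0.963) in normoglycaemic KO, where all 3 livers lay below wild type. Ldhd was the 1 gene of the 21 to do so, beside 1.51% of all genes. Against normoglycaemic KO, hypoglycaemic KO livers differed by −1.21 (SE 0.30, limma adjusted p = 0.0888) for the aldose epimerase Galm and by −2.02 (SE 0.50, adjusted p = 0.0908) for Tkfc, which phosphorylates the triose of fructose breakdown. The mean Tkfc level was 1.35 (SD 0.54, 7 livers) in the hypoglycaemic KO group, 3.37 (SD 0.82, 3 livers) in the normoglycaemic KO group and 2.32 (SD 1.02, 5 livers) in the wild-type group.

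Around pyruvate, Pdk4, the kinase induced by fasting, was at 2.75 to 4.50 in hypoglycaemic KO libraries, at 2.45, 1.26 and 1.95 in the normoglycaemic KO and at 3.01, 1.87, 2.42, 2.54 and 2.11 in the wild-type libraries. All hypoglycaemic KO livers lay above all normoglycaemic KO livers, by 1.84 (SE 0.36, limma adjusted p = 0.064). Such separation was found for 3 of the 17 genes of this list, beside 4.88% of all genes. Gpt2, the mitochondrial alanine aminotransferase that joins alanine to pyruvate, differed by 0.99 from wild type (SE 0.25, limma adjusted p = 0.0932) and by 0.99 from normoglycaemic KO (SE 0.29, adjusted p = 0.114). Of the remaining complex subunits, Pdhx differed from wild type by 0.03 (SE 0.11, limma adjusted p = 0.922) and Dld by 0.07 (SE 0.10, adjusted p = 0.732) in hypoglycaemic KO. The pyruvate carrier subunits differed in opposite directions, Mpc1 by −0.21 (SE 0.09, limma adjusted p = 0.219) and Mpc2 by 0.16 (SE 0.09, adjusted p = 0.367). In normoglycaemic KO the smallest p of this list were those of the phosphatase Pdp1 (0.22, SE 0.13, limma adjusted p = 0.963) and of Pdhx (0.22, SE 0.14, adjusted p = 0.963).

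In the hypoxia list, Hif1a, which encodes the alpha subunit of HIF1, differed by 0.26 (SE 0.10, limma adjusted p = 0.171) and Epas1, which encodes that of HIF2, by 0.29 (SE 0.20, adjusted p = 0.442) between hypoglycaemic KO and wild type. Hif3a, the third alpha subunit, named here after its values were seen, differed by 0.92 (SE 0.32, limma adjusted p = 0.156) between hypoglycaemic KO and wild type and by 1.38 (SE 0.38, adjusted p = 0.102) between the KO groups. All hypoglycaemic KO livers lay above all normoglycaemic KO livers for Hif3a, while they overlapped wild type. Such separation of the KO groups was found for 3 of the 30 genes, beside 4.88% of all genes. Ddit4, an inhibitor of mTORC1 induced by hypoxia and by other stresses, was at 6.16, 5.94, 6.32, 4.33, 7.04, 4.52 and 6.55 in hypoglycaemic KO replicates 1 to 7, against 3.01 to 3.43 in normoglycaemic KO and 2.71 to 3.99 in wild-type libraries. All 7 lay above every liver of the other groups, with a difference of 2.58 (SE 0.43, limma adjusted p = 0.0595) from wild type, and replicate 4, the pup at 33 mg/dl, was the lowest. Ddit4 was the 1 gene of the 30 wholly above wild type, beside 0.755% of all genes. Ccng2, an atypical cyclin, differed by 0.70 (SE 0.22, limma adjusted p = 0.124) from wild type and by 1.10 (SE 0.25, adjusted p = 0.0848) from normoglycaemic KO. In normoglycaemic KO livers, the carbonic anhydrase Car12 (1.54, SE 0.51, limma adjusted p = 0.963) and the lysyl oxidase Loxl2 (0.23, SE 0.13, adjusted p = 0.963) lay above all wild-type livers. They were among 3 of the 30 genes that did so, beside 2.46% of all genes.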

How the data were processed

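Liver RNA of 15 pups was hybridised to 1-colour Agilent arrays. The deposited scanner files hold spot intensity, and per the file headers Feature Extraction had subtracted a background surface (gProcessedSignal) and named coordinates in mm9. The submitters' processing notes name Agilent Feature Extraction 10.10 and limma. The authors' deposited value table holds log2 values of the same arrays, with no unit stated, and was used as an alternative.

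Flagged spots and controls were left out, spots of 1 probe were averaged as log2 of gProcessedSignal, and the log2 of each array's 75th percentile over 55681 probes was subtracted. The brightest probe stood for a gene, and genes well above background on at least 3 arrays were kept. Group means were fitted together with limma 3.58.1 in R 4.3.3 (12 residual degrees of freedom) and p-values were Benjamini-Hochberg adjusted. A second model added blood glucose within groups. On simulated data, 61.2% of 2-fold and 31.3% of 1.5-fold changes were called between hypoglycaemic KO and wild type. There 200 genes were changed and the noise was independent between genes. Differences that a library shares across many genes were left out, so these shares need not hold for the real arrays. Gene names were updated through the reference table for 8 older names. The number of arrays limits the precision. Each array is 1 pup.

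The members and lists were chosen with earlier results of these data known. Named were the 8 members with the smallest p in each comparison, the 3 smallest slopes, 11 pathway genes, and the 2 smallest p of each pathway list. Of these, 2 pathway genes are not reported here. Ankrd37, Hk2, Bnip3, Bhlhe40 and Kdm3a were chosen after their values were seen.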

Additional observations from a re-analysis of the deposited data

Results flagged for a closer look

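In 72 groups of libraries tested for a single value far from the rest (36 genes in the hypoglycaemic KO and the wild-type group), 6 values stood apart; chance alone gives about 1 in 20. Of these, 3 belonged to hypoglycaemic KO replicate 5, whose levels of Ankrd37 (1.61), Hk2 (0.79) and Bnip3 (7.25) were above the next highest of its group at −1.01, −0.32 and 6.30. The Pklr level of wild-type replicate 2 was −0.59, and the next highest wild-type level was −1.87. Pgk1 was at 6.71 in the library labelled hypoglycaemic KO replicate 2, below the next lowest of 7.08, and Ndrg1 at 2.68 in hypoglycaemic KO replicate 3, below 3.41.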

How the results depend on the processing

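Each result was recomputed under 28 alternatives. No difference or slope of a member named for its small p in that comparison reversed. Ankrd37 and Hk2, chosen after their values were seen, differed by 0.22 and 0.19 between hypoglycaemic KO and wild type. Without hypoglycaemic KO replicate 5, the hypoglycaemic KO median lay below the wild-type median for both. The medians were −1.34 against −1.22 for Ankrd37 and −0.78 against −0.75 for Hk2. The count of members called stayed 0 in the 3 comparisons under 13 settings of scaling, background, filter, slide and probe choice, and the leave-one-out counts ran from 0 to 1 for hypoglycaemic KO against wild type, from 0 to 2 between the KO groups and stayed at 0 for normoglycaemic KO against wild type. The calls appeared without hypoglycaemic KO replicate 4. For this setting and for the slope counts that follow, the share of all genes called is not given here. The count of slopes was 2 with normexp background correction, 1 with the authors' deposited log2 values and 2 among genes well above background on all 15 arrays, and 0 to 2 when single libraries were left out (1 without hypoglycaemic KO replicate 1 and 2 without replicate 7). The slope of Pklr was called in each of these 5 settings; slopes of single genes were recomputed as a choice made after seeing the data. The glycolysis median of normoglycaemic KO against wild type was 0.16 within slide 1, and that between the KO groups −0.0048 with the replicate number as a block. The hypoxia-induced median between the KO groups was −0.12 within slide 1, 0.40 within slide 2 and −0.10 with the replicate number as a block, and −0.081 (without hypoglycaemic KO replicate 5) to 0.27 when single libraries were left out. The cause of these moves was not tested.

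Of 11 same-numbered pairs of libraries, 6 had a correlation over 0.1 (from −0.18 to 0.32) and 5 did not, so the numbers were not taken to pair the livers. The replicate block left the counts of members called at 0. Without the library labelled hypoglycaemic KO replicate 2, no member was called in any comparison.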
